A study of Homo sapiens with 8 samples.

Results

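The 6 long non-coding RNAs of the HOXA cluster (HOTAIRM1, HOXA-AS2, HOXA-AS3, HOXA10-AS, HOXA11-AS and HOTTIP) were followed in 8 RNA libraries of human acute myeloid leukaemia cells. They were found by matching the Ensembl identifiers of the count table to gene symbols, which gave 6 of the 63140 genes in the table. All 6 are long non-coding genes in the GENCODE v29 annotation, and all 6 passed the filter on low counts that left 24057 genes for testing.

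The RNA came from chromatin isolation by RNA purification (ChIRP), in which biotinylated DNA probes pull RNA out of fixed and sonicated cells. The RNA that the probes were designed against is not given in the sources used here, and no input library was analysed here, so the levels are amounts recovered in a pull-down and not enrichments. Cells were nucleofected with guide RNAs and either Cas9 ribonucleoprotein, labelled knockout (KO), or a cytosine base editor (CBE), and were collected at day 3 after editing. The 4 groups held 2 libraries each: AAVS1 KO and AAVS1 CBE, the editing controls, whose genotype is labelled WT, and HOTSCRAMBL KO and HOTSCRAMBL CBE. In every group replicate 1 is labelled MOLM13 and replicate 2 OCI-AML4, both established leukaemia lines, so by the labels the replicates of a group are different lines. All 8 libraries had been nucleofected, fixed with glutaraldehyde and pulled down. No gene of the table is named HOTSCRAMBL, and none of the 6 RNAs is taken here to be the edited transcript.

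HOX genes encode transcription factors that set position along the body axis, and those of the HOXA cluster are also kept on in blood stem cells and in many acute myeloid leukaemias. Long non-coding RNAs are transcribed between and across these genes, mostly from the opposite strand, and several have been described as local regulators of the cluster. HOTAIRM1 lies beside HOXA2 and is known for its induction during granulocyte maturation. HOTTIP lies at the HOXA13 end of the cluster and is known for binding WDR5, a subunit of MLL histone methyltransferase complexes. The antisense genes HOXA-AS2, HOXA-AS3, HOXA10-AS and HOXA11-AS are named after their coding neighbours.

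In GRCh38 the 6 RNAs lie on chromosome 7 between 27095647 and 27207259. All 6 RNAs lie on the plus strand and all 11 HOXA coding genes on the minus strand. In order of position, HOTAIRM1 (ENSG00000233429) spans 27095647 to 27100265, HOXA-AS2 (ENSG00000253552) 27107777 to 27134302 and HOXA-AS3 (ENSG00000254369) 27129977 to 27155928. HOXA10-AS (ENSG00000253187) spans 27168619 to 27171915, HOXA11-AS (ENSG00000240990) 27184507 to 27189298 and HOTTIP (ENSG00000243766) 27198575 to 27207259. The counting used no strand and dropped reads that touched more than 1 gene. A read in exon shared with a coding gene was therefore lost to both genes, and a read in exon of a single gene was given to it whichever strand it came from.

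How much of each RNA could be counted differed widely. HOXA-AS2 has 86.9% of its 5431 exon bases in no other gene, and HOTTIP 79.9% of 5086. HOXA-AS3 keeps 60.7% of 5967 bases and HOTAIRM1 55.1% of 1496. HOXA11-AS keeps 40.4% of 3128 and HOXA10-AS only 37.7% of 1654. HOXA10-AS shares 608 bases with HOXA10 and 422 with HOXA9, and HOXA11-AS shares 726 bases with HOXA11. HOXA-AS3 shares 1507 bases with HOXA7, while HOXA-AS2 shares 455 with HOXA3 and 254 with HOXA4. The counts of HOXA10-AS and HOXA11-AS thus describe a minority of their exon sequence.

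Sequence that could be counted is shown for HOXA-AS2, the RNA with the clearest fall with KO, and for HOTAIRM1, which stood on the other side of 0. Each is the first 200 bases of the longest stretch of exon in no other gene, read 5′ to 3′ on the plus strand from a GENCODE v29 transcript of GRCh38. HOTAIRM1 lies at chr7:27099115-27099314 (61% G or C) and HOXA-AS2 at chr7:27115348-27115547 (55%).
HOTAIRM1: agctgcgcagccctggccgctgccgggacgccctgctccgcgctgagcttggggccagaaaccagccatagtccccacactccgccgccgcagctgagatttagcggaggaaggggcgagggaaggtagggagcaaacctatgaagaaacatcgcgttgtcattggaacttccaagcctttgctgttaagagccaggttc
HOXA-AS2: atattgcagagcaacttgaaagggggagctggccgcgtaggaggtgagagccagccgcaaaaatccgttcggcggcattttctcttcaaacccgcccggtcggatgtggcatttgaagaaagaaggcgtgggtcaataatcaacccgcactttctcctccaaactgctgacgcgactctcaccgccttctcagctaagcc

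Total counts ran from 20548300 to 37970163 per library, and 21945 to 26083 genes were detected. Of 10 genes that mark acute myeloid leukaemia cells, 9 were counted in every library, with a summed level between 2200 and 2435 CPM (counts scaled to a common library size), and KIT reached at most 0.63 CPM. CD3E and CD2 of T cells, HBB of red cells, PF4 and PPBP of megakaryocytes, KRT19 of epithelium and ALB of hepatocytes were at 0 in all 8 libraries. Other genes of the same lists were counted at low levels: CD3D reached at most 2.35 CPM, ITGA2B 4.11, KRT8 3.25 and APOA1 6.92. HBA1 and EPCAM stayed at or below 0.212 CPM, and of the fibroblast genes COL1A1 reached 1.02 CPM, with COL1A2 and DCN at or below 0.0894. The B cell genes CD79A and MS4A1 reached at most 0.443 and 0.204 CPM. The share of counts on the 37 mitochondrially encoded genes was 6.77% and 6.84% for the AAVS1 KO libraries and 10.7% and 11.9% for HOTSCRAMBL KO. For AAVS1 CBE it was 7.14% and 7.23%, and for HOTSCRAMBL CBE 11.6% and 10.2%. Across the tested genes, the median Pearson r of log2(CPM + 1) was 0.945 between libraries of different groups with the same line label and 0.943 with different line labels. Within groups, whose 2 libraries carry different line labels, the median was higher, at 0.963. The line labels were thus barely visible in this measure. The edgeR test between the labels called 119 genes, 0.495% of those tested, MIR142HG among them. The labels were not checked against genes known to differ between the 2 lines. The mitochondrial share was higher in the HOTSCRAMBL groups of both editors, and its part in the results was not tested. In such bulk libraries fewer cells of a kind, less RNA per cell and less RNA pulled down cannot be told apart.

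The 6 RNAs together took 0.00448% to 0.0117% of all counts, 921 to 3547 counts per library. Their summed level was 109.7 and 110.1 CPM in AAVS1 KO and 47.0 and 53.1 CPM in HOTSCRAMBL KO. In AAVS1 CBE it was 106.4 and 83.6 CPM, and in HOTSCRAMBL CBE 97.9 and 96.6 CPM. Both HOTSCRAMBL KO libraries lay below the other 6, which overlapped. The 11 coding genes summed to 138.1 and 129.9 CPM in AAVS1 KO, against 50.8 and 62.0 CPM in HOTSCRAMBL KO. For CBE their sums were 129.3 and 117.9 CPM in the controls and 135.7 and 154.9 CPM in the edited libraries. The non-coding share of the combined sum stayed between 38.4% and 48.0%. Within the summed CPM of the 6 RNAs, not divided by length, HOXA-AS2 made up 31.9% and 33.7% in HOTSCRAMBL KO, against 47.0% to 55.0% in the other 6 libraries.

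**Figure D1:**
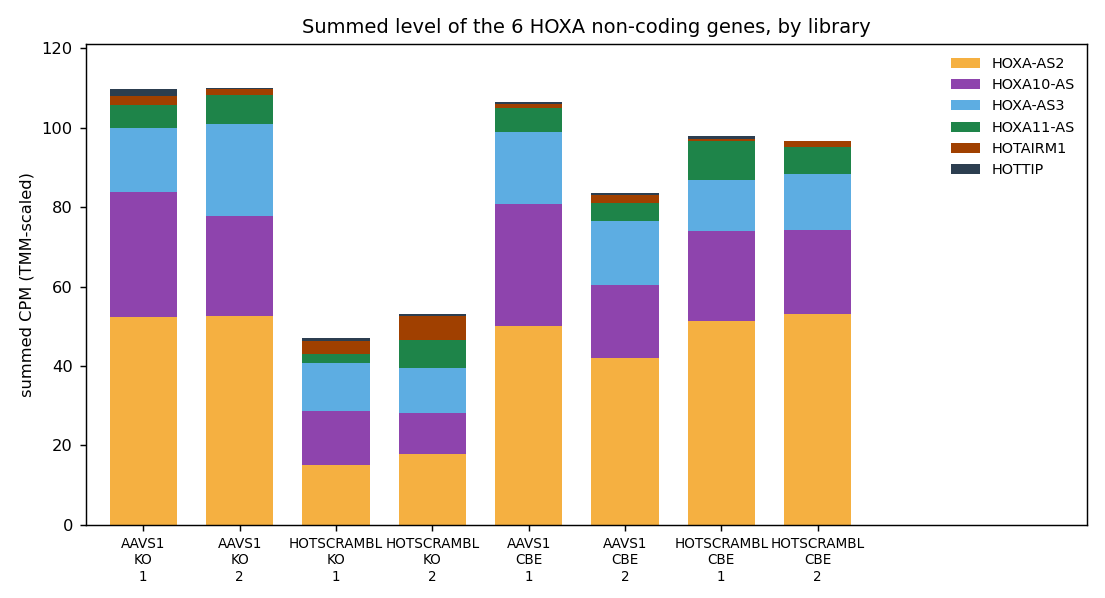
Summed level of the 6 non-coding RNAs (y axis, TMM-scaled CPM, from 0) in each of the 8 libraries (x axis), with 1 coloured segment per RNA. The 2 HOTSCRAMBL KO bars reach 47.0 and 53.1 CPM and the other 6 bars lie between 83.6 and 110.1 CPM. Segments are not divided by length.

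Since the RNAs differ in length, their levels were set against each other per kilobase. Per kilobase of exon in no other gene, the mean over the 8 libraries was 34.8 ± 12.1 CPM (SD, n = 8) for HOXA10-AS, 8.84 ± 3.40 for HOXA-AS2, 4.93 ± 1.76 for HOXA11-AS, 4.29 ± 1.09 for HOXA-AS3, 2.66 ± 2.17 for HOTAIRM1 and 0.155 ± 0.112 for HOTTIP. HOXA10-AS was above HOXA-AS2 in 8 of 8 libraries, 3.94-fold by the means, and their ranges did not overlap. HOXA-AS2 exceeded HOXA11-AS in 7 of 8 libraries with overlapping ranges. HOXA11-AS and HOXA-AS3 were not separated, each being the higher in 4 of 8. HOXA-AS3 was above HOTAIRM1 in 6 of 8, and HOTAIRM1 above HOTTIP in 8 of 8. The spread here holds the differences between groups as well as between libraries.

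Dividing by all exon bases instead narrowed the distances. HOXA10-AS then had 13.1 ± 4.56 CPM per kilobase, 1.71-fold above HOXA-AS2 at 7.69 ± 2.95, and their ranges overlapped, though HOXA10-AS was still higher in 8 of 8 libraries. HOXA-AS3 at 2.60 ± 0.66 and HOXA11-AS at 1.99 ± 0.713 changed places. HOTTIP stayed the lowest at 0.124 ± 0.0893, after HOTAIRM1 at 1.46 ± 1.19. The order at both ends was the same with either length, and the middle depended on how shared exon was treated.

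**Figure D2:**
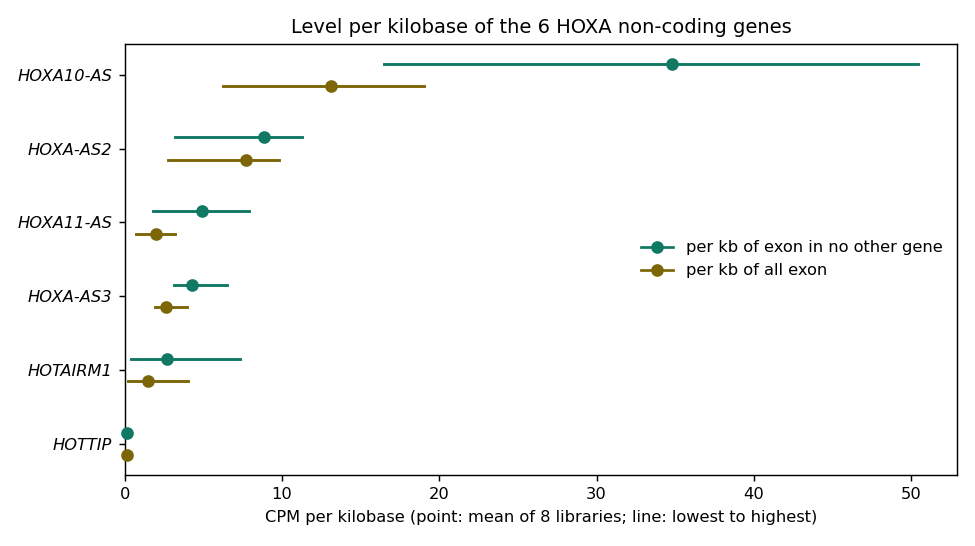
Level of each RNA in CPM per kilobase (x axis, from 0), divided by exon in no other gene (green) or by all exon (brown). Points are means of 8 libraries and lines run from the lowest to the highest library. HOXA10-AS is the highest and HOTTIP the lowest with both lengths.

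The first comparison was HOTSCRAMBL KO against AAVS1 KO, the difference in recovered RNA between the 2 groups given Cas9. In it 2 of the 6 RNAs passed the test, HOXA-AS2 and HOXA10-AS, both lower. Over all 24057 genes 8.76% passed in either direction and 4.25% passed as lower. Among the 5055 tested long non-coding genes of GENCODE v29 the shares were 2.95% and 1.05%. The median log2 fold change of the 6 was −0.66, against −0.01 over all genes tested. Of the 6, 5 had a value below 0, and HOTAIRM1 alone a value above it. An RNA is said to pass at a Benjamini-Hochberg adjusted p below 0.05 in edgeR's quasi-likelihood F-test over all 24057 genes.

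HOXA-AS2, transcribed across the HOXA3 and HOXA4 region and described as a brake on apoptosis in promyelocytic cells, was the RNA with the clearest fall. It lies within the span of HOXA3 on the other strand, and the counting used no strand. Reads from HOXA3 introns that cross its exons could therefore not be told from its own. The level of HOXA-AS2 was 52.3 and 52.5 CPM in AAVS1 KO and 15.0 and 17.9 CPM in HOTSCRAMBL KO, from 1334, 1312, 294 and 400 counts. The control libraries nearly coincided, and both edited libraries lay far below them. The log2 fold change was −1.66 (SE 0.278, 95% interval −2.23 to −1.09, edgeR adjusted p 1.40e-04), 3.17-fold lower. Within the libraries labelled MOLM13 the log2 ratio was −1.74, and within those labelled OCI-AML4 −1.50, on the log2(CPM + 1) scale. The call held in all 18 alternative analyses run, among them those that left out any 1 library.

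HOXA10-AS, which lies inside the span of HOXA9 and shares exon bases with HOXA9 and HOXA10, also fell. Reads from HOXA9 introns that cross its exons could likewise not be told from its own. HOXA10-AS had 31.5 and 25.2 CPM in AAVS1 KO and 13.6 and 10.3 CPM in HOTSCRAMBL KO, and the groups did not overlap. The log2 fold change was −1.25 (SE 0.354, 95% interval −1.98 to −0.52, edgeR adjusted p 0.0243), 2.38-fold lower, with −1.16 and −1.22 within the MOLM13 and OCI-AML4 labels. This call was less firm than that of HOXA-AS2. It was lost when AAVS1 KO replicate 1 (edgeR adjusted p 0.205) or replicate 2 (0.181), or HOTSCRAMBL KO replicate 1 (0.20) or replicate 2 (0.145), was left out, and in a fit of only the 4 libraries compared (0.111). The fold change moved little in these, from −1.30 to −1.19.

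HOXA-AS3, whose exons run through HOXA6 and HOXA7, had 16.3 and 23.4 CPM in AAVS1 KO and 12.2 and 11.4 CPM in HOTSCRAMBL KO. Its span overlaps that of HOXA3, and reads from HOXA3 introns that cross its exons could likewise not be told from its own. The groups did not overlap, but the log2 fold change of −0.76 (SE 0.386, 95% interval −1.55 to 0.04, edgeR adjusted p 0.28) did not pass. HOXA11-AS, which starts inside HOXA11, had 5.72 and 7.32 CPM in AAVS1 KO and 2.24 and 7.02 CPM in HOTSCRAMBL KO. Its 2 edited libraries disagreed, with replicate 2 near the controls and replicate 1 below them. The log2 fold change was −0.45 (SE 0.633, 95% interval −1.75 to 0.86, edgeR adjusted p 0.753), and leaving out HOTSCRAMBL KO replicate 1 turned it to 0.22, and replicate 2 to −1.65.

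HOTAIRM1 had 2.35 and 1.32 CPM in AAVS1 KO and 3.16 and 6.03 CPM in HOTSCRAMBL KO, from 60, 33, 62 and 135 counts. Both edited libraries were above both controls, and replicate 2 stood well above the rest. With a log2 fold change of 1.32 (SE 0.789, 95% interval −0.30 to 2.94, edgeR adjusted p 0.376) it did not pass, and the interval holds values from a small fall to a large rise. The value moved with the control library left out: it was 2.27 without AAVS1 KO replicate 1 and 0.27 without replicate 2, not called in either fit. HOTTIP was near the limit of counting, at 1.57 and 0.40 CPM in AAVS1 KO and 0.816 and 0.492 CPM in HOTSCRAMBL KO, from 40, 10, 16 and 11 counts. Its groups overlapped, and the log2 fold change of −0.57 (SE 1.46, 95% interval −3.56 to 2.42, edgeR adjusted p 0.875) was not distinguishable from 0. In all, 3 of the 6 RNAs lay below their controls without overlap and 1 above. Over all genes tested, 23.8% lay below without overlap and 21% above.

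**Figure D3:**
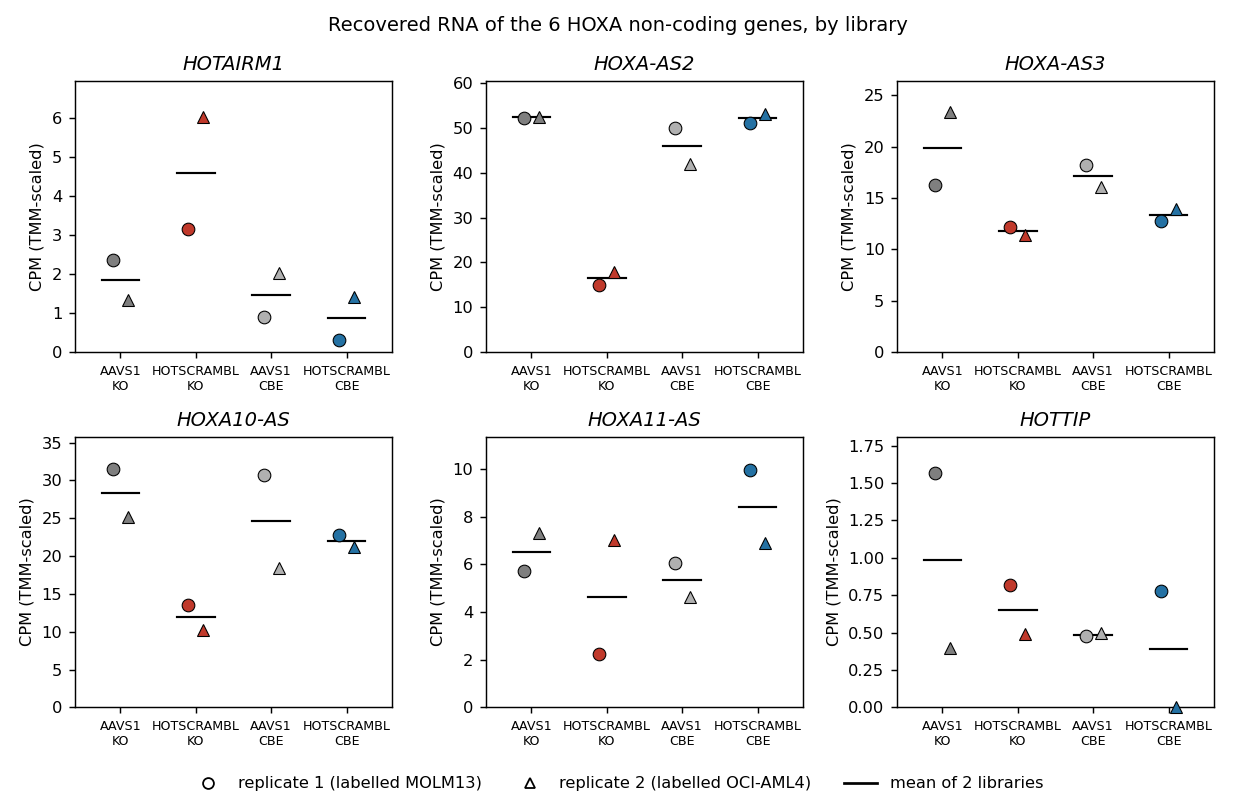
Level of each RNA (y axis, TMM-scaled CPM, each panel from 0) in the 4 groups (x axis). Circles are replicate 1, labelled MOLM13, triangles replicate 2, labelled OCI-AML4, and bars the mean of 2 libraries. HOXA-AS2 lies between 42.0 and 53.1 CPM in 6 libraries and at 15.0 and 17.9 CPM in HOTSCRAMBL KO.

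The second comparison was HOTSCRAMBL CBE against AAVS1 CBE, which sets base editing of the same locus against its own control libraries. None of the 6 RNAs passed, where 8.83% of all genes tested and 2.53% of long non-coding genes did. At an unadjusted p under 0.05 edgeR gave 0 of the 6 as well, and DESeq2 and limma-voom also called 0. The median log2 fold change was −0.17, against −0.02 over all genes tested, with 2 RNAs above 0 and 4 below.

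HOXA-AS2 had 50.0 and 42.0 CPM in AAVS1 CBE and 51.2 and 53.1 CPM in HOTSCRAMBL CBE. The edited libraries lay slightly above the controls, with a log2 fold change of 0.17 (SE 0.204, 95% interval −0.25 to 0.59, edgeR adjusted p 0.70). The interval holds no fall of the size seen with KO. HOXA10-AS had 30.7 and 18.4 CPM in AAVS1 CBE and 22.8 and 21.3 CPM in HOTSCRAMBL CBE, the edited pair lying between the controls. Its log2 fold change was −0.18 (SE 0.28, 95% interval −0.76 to 0.40, edgeR adjusted p 0.785).

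HOXA-AS3 had 18.2 and 16.0 CPM in AAVS1 CBE and 12.8 and 13.9 CPM in HOTSCRAMBL CBE, without overlap. The log2 fold change was −0.38 (SE 0.339, 95% interval −1.07 to 0.32, edgeR adjusted p 0.598). HOXA11-AS had 6.06 and 4.63 CPM in AAVS1 CBE and 9.95 and 6.89 CPM in HOTSCRAMBL CBE, also without overlap but in the other direction. Its log2 fold change was 0.68 (SE 0.50, 95% interval −0.35 to 1.71, edgeR adjusted p 0.492). Neither separation passed the test. In all, 1 of the 6 lay below its controls without overlap, where 23.7% of all genes did, and 2 above, where 22.7% did.

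HOTAIRM1 had 0.90 and 2.01 CPM in AAVS1 CBE and 0.305 and 1.42 CPM in HOTSCRAMBL CBE, and the groups overlapped. Its log2 fold change was −0.85 (SE 1.14, 95% interval −3.19 to 1.50, edgeR adjusted p 0.74). HOTTIP had 0.48 and 0.495 CPM in AAVS1 CBE and 0.776 and 0 CPM in HOTSCRAMBL CBE. The count of 0 in replicate 2 allows up to 3 fragments by counting error alone. As both reads of a pair were counted, that is at most 6 counts, or 0.228 CPM of the total counts, before TMM scaling. HOTTIP gave a log2 fold change of −0.15 with a 95% interval of −3.49 to 3.18, which holds no information on direction.

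**Figure D4:**
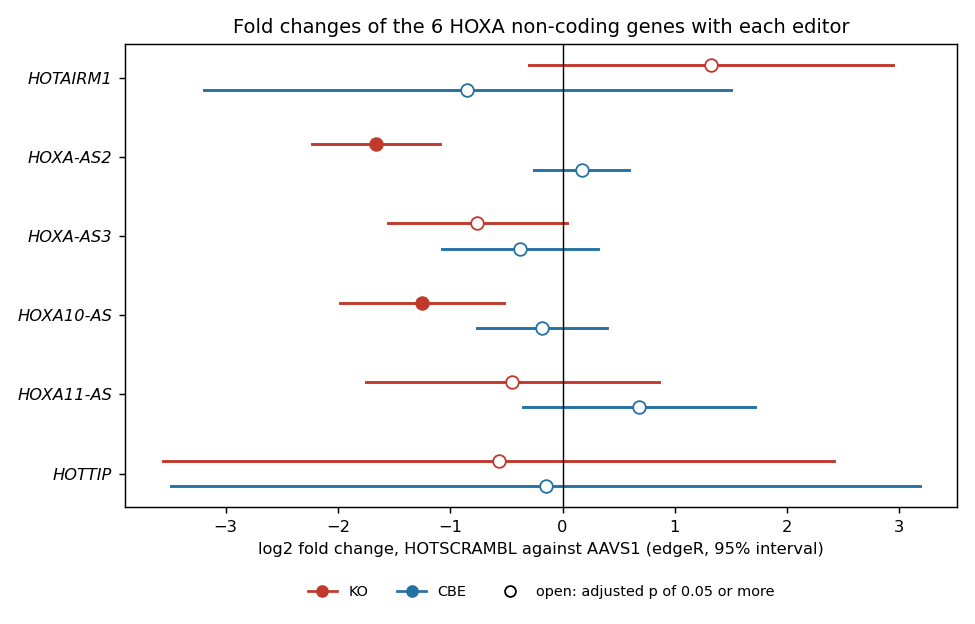
Log2 fold change of HOTSCRAMBL against AAVS1 (x axis) for the 6 RNAs with KO (red) and CBE (blue), with 95% intervals from edgeR. Filled points passed the adjusted p threshold of 0.05, as HOXA-AS2 and HOXA10-AS did with KO, and open points did not.

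Whether the editors differed was tested as the difference of the effects (the log2 fold changes against the controls), a term that uses all 8 libraries. HOXA-AS2 passed: its effect was lower with KO than with CBE by −1.84 on the log2 scale (SE 0.348, 95% interval −2.55 to −1.12, edgeR adjusted p 0.002). Of all genes tested 3.19% passed, 1.45% lower, and of long non-coding genes 1.35% passed. The call was kept in 15 of 17 alternatives. Without AAVS1 KO replicate 2 the difference was −1.80 with edgeR adjusted p 0.0502, and without HOTSCRAMBL KO replicate 1 it was −1.70 with edgeR adjusted p 0.051. In those fits the difference was of similar size, with an adjusted p just above the threshold.

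The other 5 RNAs did not pass this test. HOXA10-AS had a difference of −1.07 (SE 0.458, 95% interval −2.01 to −0.13, edgeR adjusted p 0.265), which DESeq2 alone called (DESeq2 adjusted p 0.0303). A difference between the editors is therefore not shown for HOXA10-AS. HOXA11-AS had −1.13 (edgeR adjusted p 0.583), HOXA-AS3 −0.38 (0.82), HOTTIP −0.41 (0.976) and HOTAIRM1 2.17 (0.524). The 95% interval of HOTAIRM1, −0.69 to 5.02, was the second widest after that of HOTTIP.

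The editing controls were compared as a background. Between AAVS1 KO and AAVS1 CBE, whose libraries also serve the comparisons above, 0 of the 6 RNAs and 0% of all genes passed in edgeR. An unadjusted p under 0.05 was reached by 918 genes, none of them one of the 6, and DESeq2 called 35. All 6 log2 fold changes lay above 0, from 0.18 for HOXA-AS2 (95% interval −0.25 to 0.61) to 1.06 for HOTTIP (−1.82 to 3.94). Between the MOLM13 and OCI-AML4 labels 0 of the 6 passed, where 0.495% of all genes did, and the median log2 difference of the 6 was 0.01. HOXA-AS2 differed by 0.03 between the labels (95% interval −0.30 to 0.36). HOTAIRM1, at −0.70 (−2.02 to 0.61), and HOTTIP, at 1.38 (−0.96 to 3.73), had the widest uncertainty.

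The coding neighbours were read beside each RNA, since exons of both lie interleaved. With KO 2 of the 11 HOXA coding genes fell, HOXA3 and HOXA5, where 8.76% of all genes tested were called; 10 of 11 had values below 0, with a median log2 fold change of −1.40. HOXA3, whose gene span contains that of HOXA-AS2, went from 35.8 and 29.2 CPM to 7.86 and 6.17 CPM, which made −2.21 on the log2 scale (SE 0.38, edgeR adjusted p 1.93e-04), called in all 18 alternatives. HOXA5 lies inside the spans of HOXA-AS3 and HOXA3, and intron reads of either that cross its exons could not be told from its own. It went from 21.1 and 15.8 CPM to 3.37 and 7.06 CPM (log2 fold change −1.80, edgeR adjusted p 0.0306). The HOXA5 call was kept in 11 of 18 alternatives and was lost whenever either library of AAVS1 KO, HOTSCRAMBL KO or AAVS1 CBE was left out. The highest adjusted p of HOXA5 over the 18 alternatives was 0.463.

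HOXA9, a factor tied to leukaemia that shares 422 exon bases with HOXA10-AS, had 41.6 and 27.8 CPM in AAVS1 KO and 16.1 and 20.6 CPM in HOTSCRAMBL KO. Its log2 fold change of −0.91 (edgeR adjusted p 0.0773) did not pass. HOXA9 was called in 4 of 18 alternatives, those without TMM, with at least 10 counts in every library, with DESeq2 and with the earlier quasi-likelihood estimate, and the adjusted p ran from 0.00872 to 0.757 over the 18. HOXA10, which shares 608 exon bases with HOXA10-AS, had 16.2 and 16.4 CPM against 8.98 and 14.9 CPM, a log2 fold change of −0.43 (edgeR adjusted p 0.623). With CBE only HOXA11 was called, higher by 1.23 on the log2 scale (edgeR adjusted p 0.0484), where 8.83% of all genes were called. Its antisense partner HOXA11-AS had 0.68 and did not pass. The HOXA11 call was kept in 4 of 18 alternatives and was lost without the line term (edgeR adjusted p 0.0639). The median over the 11 coding genes with CBE was 0.39. In the test of the difference between editors HOXA3 passed, at −2.08 (edgeR adjusted p 0.0094).

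**Figure D5:**
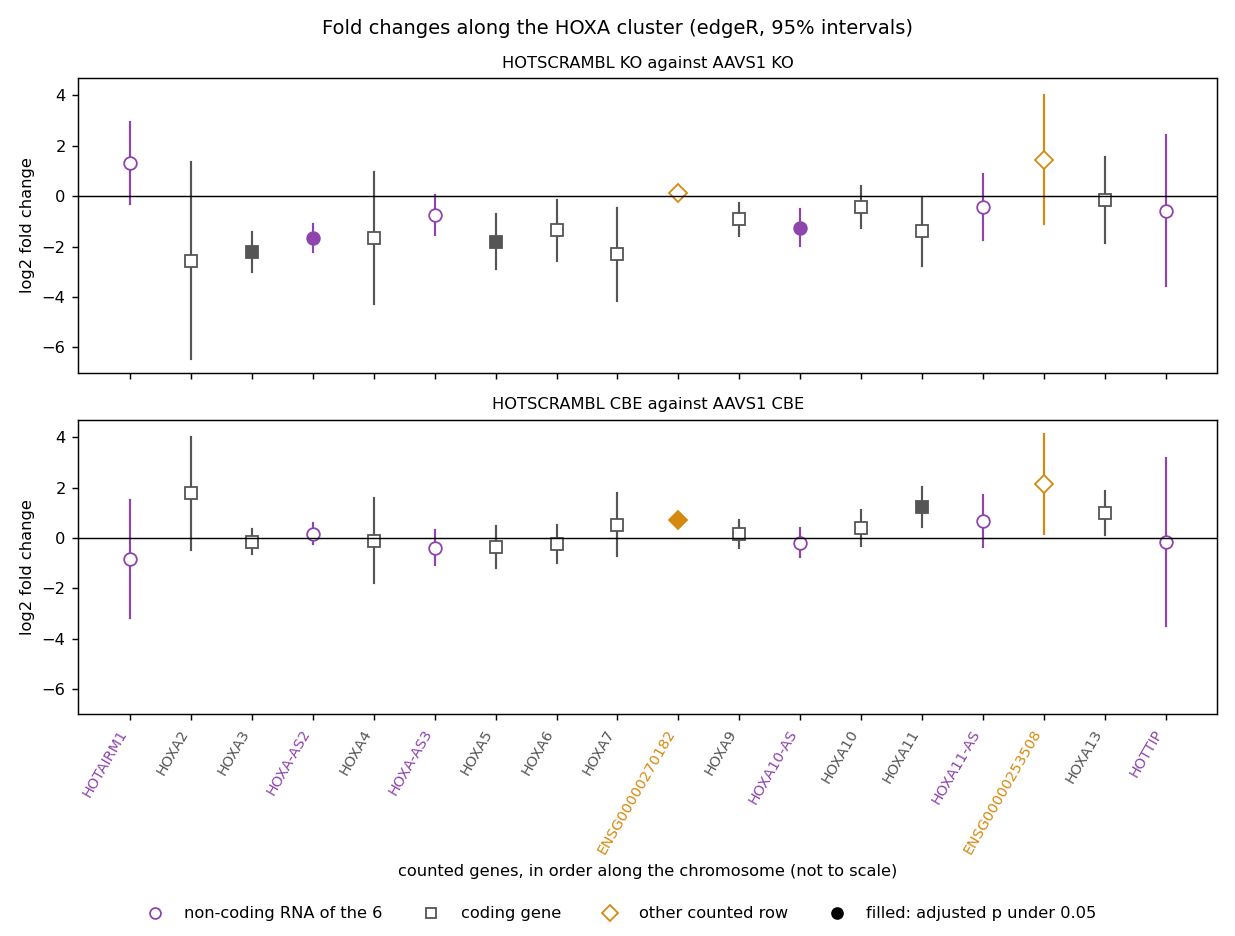
Log2 fold change of counted genes of the cluster (y axis, 95% intervals from edgeR), in order along the chromosome (x axis, not to scale), with KO above and CBE below. Filled symbols passed the adjusted p threshold of 0.05: HOXA3, HOXA-AS2, HOXA5 and HOXA10-AS with KO, and ENSG00000270182 and HOXA11 with CBE.

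Of the 38 rows of the table in the cluster, 21 were neither a coding gene nor one of the 6 RNAs, and 19 of those had no count in any library. Most of the 19 lie wholly inside exons of another gene, where reads were dropped. MIR196B, the microRNA gene inside exon of HOXA10-AS and HOXA9, is one of them. The other two were ENSG00000253508, with 5 to 98 counts per library, and ENSG00000270182, which overlaps no other row.

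ENSG00000270182, a 633-base single-exon row on the plus strand at 27158344 to 27158976 between HOXA7 and HOXA9, had more counts than the 6 RNAs together in every library, by 2.05 to 5.46 times in CPM. It did not follow them with KO. Its level was 232.2 and 265.4 CPM in AAVS1 KO and 256.3 and 284.5 CPM in HOTSCRAMBL KO, overlapping groups with a log2 fold change of 0.12 (SE 0.128, 95% interval −0.14 to 0.38, edgeR adjusted p 0.668; −0.04 without TMM scaling). With CBE it rose from 218.6 and 326.6 CPM to 447.1 and 442.1 CPM, by 0.73 on the log2 scale (SE 0.12, edgeR adjusted p 1.24e-04). That call was lost in 3 of 18 alternatives, among them those without AAVS1 CBE replicate 1 and without HOTSCRAMBL CBE replicate 1, and the highest adjusted p over the 18 was 0.0851. The difference between editors, −0.61, missed the threshold (edgeR adjusted p 0.0555), and 7 of 17 alternatives called it. Per kilobase of exon in no other gene this row had 488.3 CPM on average, against 34.8 for HOXA10-AS.

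For the RNAs with a mean of at least 10 CPM, the genes elsewhere in the genome with the most similar profile were listed by Pearson r of log2(CPM + 1) over the 8 libraries, among 9636 genes. For HOXA-AS2 they were ARHGEF2, GPR84 and VEGFA, each with r of 0.99. VEGFA had 709.5 ± 15.0 CPM (SD, n = 2) in AAVS1 KO, 362.1 ± 10.7 in HOTSCRAMBL KO, 649.5 ± 17.3 in AAVS1 CBE and 740.0 ± 45.9 in HOTSCRAMBL CBE. For HOXA10-AS they were GOLGA8M (0.99), CABIN1 and ZNF638 (0.98 each), and for HOXA-AS3 they were MED15, PRR7-AS1 and EGR3 (0.96 each). PRR7-AS1 had 32.5 ± 14.2 CPM in AAVS1 KO and 9.89 ± 0.148 in HOTSCRAMBL KO. These values describe likeness only, over libraries that share editing groups and scaling. For HOXA-AS2 they rest on the 2 HOTSCRAMBL KO libraries, which stand apart from the other 6.

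Among other lists, WDR5, the partner known for HOTTIP, fell with KO with a log2 fold change of −0.78 (edgeR adjusted p 0.0112), as 1 of 5 WDR5-MLL subunits tested. RBBP5, ASH2L, DPY30 and KMT2A did not pass. The WDR5 call was kept in 13 of 18 alternatives and was lost without any 1 library of AAVS1 KO or HOTSCRAMBL KO and in the fit of only those 4 libraries. With CBE 0 of the 5 passed in edgeR. Of all genes tested 8.76% were called with KO and 8.83% with CBE. Non-coding RNAs of the other HOX clusters were nearly absent: of 12, among them HOTAIR at 0 in all 4 groups, only HOXC-AS2 reached the test, and it was not called with either editor.

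Of 15 long non-coding RNAs from elsewhere in the genome, 2 rose with KO, MALAT1 and GAS5, and 2 fell, NEAT1 and MIR142HG, with a median log2 fold change of 0.14. Of all genes tested 8.76% were called with KO, and of long non-coding genes 2.95%. MALAT1, a nuclear RNA of speckles, rose by 0.81 on the log2 scale (edgeR adjusted p 2.46e-07) and GAS5, a snoRNA host, by 1.14 (7.26e-06). NEAT1, the scaffold of paraspeckles, had −0.32 (edgeR adjusted p 0.00856) and MIR142HG, the host of a blood microRNA, −1.21 (2.07e-07). MALAT1 and GAS5 were called in 18 of 18 alternatives and MIR142HG in 17, losing its call without the line term (edgeR adjusted p 0.479). The NEAT1 call was kept in 12 of 18. It was lost without the line term (edgeR adjusted p 0.0773), in the fit of only the 4 libraries compared and without any 1 library of AAVS1 KO or HOTSCRAMBL KO, with adjusted p of up to 0.29. With CBE 4 of the 15 rose and 4 fell, where 8.83% of all genes and 2.53% of long non-coding genes were called.

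The start regions of the RNAs were described from RefSeq windows of 300 bases (250 before and 50 after the start, GRCh38.p14), which hold 4 of the 6 RNAs. HOTAIRM1 and HOXA10-AS have no entry. All 4 RefSeq starts lie inside the counted gene, downstream of its first base: by 14142 bases for HOXA-AS2, 17186 for HOXA-AS3, 901 for HOXA11-AS and 1846 for HOTTIP. The windows thus describe internal starts, and that of HOXA-AS2 lies downstream of the exon stretch printed for it. CpG dinucleotides numbered 3 for HOXA-AS2, 2 for HOXA-AS3, 12 for HOXA11-AS and 41 for HOTTIP, against a median of 14 over 35116 windows. Only 5.85% of windows hold more CpG than that of HOTTIP, and 18.2% hold fewer than that of HOXA-AS2. G and C made up 36% of the HOXA-AS2 window, 52.7% of those of HOXA-AS3 and HOXA11-AS, and 78% of that of HOTTIP. The letters TGATTTAT, a HOXA9 site with PBX, are in 0.846% of all windows on either strand, and GGNGGCAG, part of the CTCF core, in 16.7%. Neither occurs in these 4 windows. The windows of HOXA-AS2 (chr7:27121669-27121968), the highest of the 4 per kilobase, and of HOTTIP (chr7:27200171-27200470), the lowest, are printed on the plus strand with CpG in capitals. They hold the lowest and the highest share of G and C of the 4, and a relation of this share to the level was not tested.
HOXA-AS2 promoter window: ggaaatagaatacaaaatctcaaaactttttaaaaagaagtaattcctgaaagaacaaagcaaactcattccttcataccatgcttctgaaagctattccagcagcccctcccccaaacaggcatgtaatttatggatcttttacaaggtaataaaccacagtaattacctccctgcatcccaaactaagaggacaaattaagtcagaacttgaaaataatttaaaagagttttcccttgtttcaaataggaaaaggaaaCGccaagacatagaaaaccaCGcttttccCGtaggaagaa
HOTTIP promoter window: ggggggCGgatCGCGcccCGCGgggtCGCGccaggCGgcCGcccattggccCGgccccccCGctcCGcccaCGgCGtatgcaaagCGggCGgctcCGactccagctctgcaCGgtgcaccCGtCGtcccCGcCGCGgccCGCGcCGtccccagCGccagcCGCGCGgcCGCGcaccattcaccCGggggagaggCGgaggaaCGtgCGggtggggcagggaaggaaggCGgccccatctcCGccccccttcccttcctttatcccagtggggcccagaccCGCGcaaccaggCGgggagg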

How the data were processed

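The deposited values are raw counts for each gene in each library, with no normalisation by the authors. They were made by featureCounts 2.0.6 on GRCh38 with Ensembl 112 genes, per the file headers. The same headers show that no strand was set, that reads at several positions or over several genes were not counted and that both reads of a pair were counted. The aligner is not given in the sources used here. Per the labels, libraries were made from total RNA of the pull-down with a kit for small inputs.

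The records of TTN and ANK2 (2 in all) were rejoined, and 62541 of 63140 identifiers were in the name table. Shared and unshared exon bases were computed from the exon coordinates in the deposited table. Tests used edgeR 4.0.16 under R 4.3.3 (quasi-likelihood F-test, robust, TMM scaling, minimum count 10, Benjamini-Hochberg threshold 0.05), with a term per group and a line term, which left 3 residual degrees of freedom. The procedure was tested on simulated data, drawn with the spread fitted here and no line effect. Changed genes were placed only among the more highly expressed, so recovery of changes at low counts was not tested. CPM are TMM-scaled. With 20548300 to 37970163 counts per library, 3 fragments, at most 6 counts, are 0.158 to 0.292 CPM before TMM scaling. Such limits describe counting error alone, because PCR copies could not be told from separate molecules. The pairing comes from the stated line. Deviations from group means correlated across genes with r of 0.0203 to 0.053 between groups. Whether a line's libraries came from separate cultures is not stated, so p-values measure the spread between these samples, which may be technical. The members and lists were chosen with earlier results of these data known. The text names the 6 RNAs, the genes of the lists, and for each RNA with a mean of at least 10 CPM the 3 most similar genes outside the cluster. DESeq2 1.42.0, limma-voom (limma 3.58.1), other scalings and filters, halved counts, fits of fewer libraries and a fit without the line term were alternatives. A few items are not reported here.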

Additional observations from a re-analysis of the deposited data

Results flagged for a closer look

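HOXA-AS2 differed between the editors by a test of the difference itself. The effect of HOTSCRAMBL KO minus that of HOTSCRAMBL CBE was −1.84 on the log2 scale (edgeR adjusted p 0.002). HOXA-AS2 had 15.0 and 17.9 CPM in HOTSCRAMBL KO and 51.2 and 53.1 CPM in HOTSCRAMBL CBE. The share of counts on mitochondrially encoded genes was 10.7% and 11.9% in the former and 11.6% and 10.2% in the latter.

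HOXA3, whose span contains HOXA-AS2 and which shares 455 exon bases with it, differed in the same test by −2.08 (edgeR adjusted p 0.0094). Its call was kept in 10 of 17 alternatives. It was lost without either AAVS1 KO library, either HOTSCRAMBL KO library, either HOTSCRAMBL CBE library or AAVS1 CBE replicate 1, with edgeR adjusted p of up to 0.115. Groups of 2 libraries were too small for a test of outlying libraries.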

How the results depend on the processing

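HOXA-AS2 kept its KO call in 18 of 18 alternatives, with log2 fold changes from −1.84 to −1.53. HOXA10-AS kept its KO call in 13 of 18, from −1.41 to −1.19. The line supplies the pairing, and the fit without this replicate block changed no call of the 6 RNAs; it gave 503 genes for the difference between editors, against 767. DESeq2 gave 4150 genes with KO, 3351 with CBE, 2205 for the difference, 35 between the controls and 715 between the line labels, and called 2 of the 6 RNAs for the difference (HOXA10-AS at −1.10). A fit of only the 4 libraries compared called 780 genes with KO and 677 with CBE, and 1 of the 6 RNAs with KO; it has fewer libraries to estimate the spread. Between the line labels, 119 genes became 231 with at least 10 counts in every library, 265 with limma-voom and 193 with the earlier quasi-likelihood estimate, an alternative chosen after seeing the data.

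With 1 library left out, which leaves its group with a lone library assumed to vary like the other groups, calls among the 6 RNAs ran from 1 to 2 with KO and from 0 to 1 for the difference. Calls over all genes ran from 677 to 1674 with KO, 586 to 1885 with CBE, 226 to 372 for the difference and 26 to 65 between the line labels. None of the values that changed sign was called. HOTAIRM1 ran from 0.27 to 2.27 with KO and −1.93 to −0.25 with CBE, with no change of sign. With KO HOXA11-AS ran from −1.65 to 0.22 and HOTTIP from −0.86 to 0.09. With CBE HOXA10-AS ran from −0.37 to 0.12 and HOTTIP from −6.03 to 0.44. For the difference HOTTIP ran from −0.98 to 5.45, and gave 1.15 with DESeq2, 0.52 with limma-voom and 1.13 with the earlier estimate. Between the controls HOTAIRM1 ran from −0.62 to 1.39, HOXA-AS3 from −0.11 to 0.47, HOXA10-AS from −0.00 to 0.49 and HOTTIP from −0.26 to 1.68. Between the line labels HOXA-AS2 ran from −0.07 to 0.07 (−0.01 with DESeq2 and with the earlier estimate), HOXA-AS3 from −0.24 to 0.06 and HOXA11-AS from −0.33 to 0.23. ENSG00000270182 with KO was −0.04 without TMM. The cause of these changes was not tested.

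Without TMM the median of all genes moved to −0.17 with KO and −0.15 with CBE, and the higher share of calls from 51.5% to 33.1% and from 51.6% to 32.6%. Directions are relative to TMM scaling. HOTTIP and HOTAIRM1 had the fewest counts of the 6, 0 to 40 and 11 to 135 per library. With counts halved HOTAIRM1 with KO was 1.34, against 1.32, and HOTTIP no longer reached the test. The biological coefficient of variation that edgeR estimated was 0.826 for HOTAIRM1 and 1.4 for HOTTIP, against 0.185 for HOXA-AS2.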
